A study of Mus musculus with 4 samples.

Results

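Among sorted mouse blood stem cells, the cells richest in RNA of genes switched on at entry into DNA replication were set apart by a score over 11 genes. The score counted unique molecular identifiers (UMIs, 1 per captured RNA molecule) of Mcm2, Mcm3, Mcm5, Mcm6, Ung, Hells, Uhrf1, Cdt1, E2f1, Lig1 and Gmnn per 10000 UMIs of the cell. Members were the cells in the top 10% of this score in their library that also had at most 2 UMIs summed over the mitotic genes Mki67, Top2a, Ccnb2, Cenpf, Ube2c and Birc5. They numbered 351 of 5579 kept cells (6.29%), with 67 in the LT-HSC library of mouse 2, 153 and 129 in the ST-HSC libraries of mouse 1 and mouse 2, and 2 in LT-HSC of mouse 1. Values below follow that order of the first 3 libraries unless stated. They were compared with the low-score cells, which were the bottom 50% of the score in the same library (609, 1317 and 854 cells in the first 3 of these libraries). A second comparison used the mitotic-gene-rich cells, which also lay in the top 10% of the score but had 3 or more of those mitotic UMIs (55, 111 and 42 cells).

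The cells were taken from the bone marrow of 2 male mice aged 14 weeks of the strain Tie2-bG-Micm x RosaYFP, and each mouse gave 1 long-term (LT-HSC) and 1 short-term (ST-HSC) library. Both gates held cells without lineage markers or CD48 and with Kit and Sca1, and CD150 was present on LT-HSC and absent on ST-HSC. All 4 libraries share the strain, whose name denotes an inducible Cre recombinase under the Tie2 promoter, active in blood stem and endothelial cells, and a YFP reporter at the Rosa locus; the labels used here do not say whether Cre had been induced. No group was sorted on DNA content or on a proliferation protein, so the cycle position of every cell rests on its RNA alone.

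A cell that leaves the resting state activates cyclin-dependent kinases, which release E2F transcription factors from the retinoblastoma protein family. E2F with its DP partners then switches on the genes that license replication origins, copy DNA and supply nucleotides, while the mitotic genes follow later through other factors. Most blood stem cells in an adult are at rest, and those that divide are known to do so seldom.

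LT-HSC of mouse 1 stood apart, with 22 kept cells of 39553 barcodes and a median of 285 UMIs over all its barcodes. Its 2 members had 2 and 4 score UMIs, and it entered no test. The other 3 libraries kept 1217, 2633 and 1707 cells, whose medians lay between 7504 and 10367 UMIs. Between the kept cells of these libraries, 1 barcode was shared by LT-HSC and ST-HSC of mouse 2 and 1 by both ST-HSC libraries. With 3 libraries from 2 mice, the p-values of the main fits weigh how the difference between classes within a library varies. Of these 3 libraries, 2 come from the same animal.

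The 11 score genes and 6 mitotic genes chose the cells, so their levels are a description with no test. The lowest score of a member was 13.955, 13.109 and 9.855 in the 3 libraries, and the highest score below the limit was 13.940, 13.065 and 9.852. The median member carried 30, 24 and 15 score UMIs, against 1, 1 and 0 in the median low-score cell, and had 9, 9 and 7 of the 11 score genes detected. Mcm5, a subunit of the replicative helicase, lay at 165, 178 and 166 CPM (UMIs per 1000000 UMIs of the summed cells) in members, against 5.84, 5.91 and 2.47 CPM in low-score cells. Ung, which removes uracil from DNA, lay at 133, 128 and 109 CPM in members, against 2.06, 1.64 and 1.31 CPM in low-score cells. Of the members, 30 of 67, 67 of 153 and 76 of 129 had no mitotic UMI at all.

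A score built on few UMIs partly selects its own counting error. When each cell's UMIs were divided at random into 2 equal parts and members were chosen on one part, 66.7%, 68.4% and 69.1% of them lay in the top 10% of the other part, against 0.328%, 0% and 0.234% of the low-score cells. In that other part, the summed score genes stood 9.70, 11.1 and 9.86 times higher in the members than in the low-score cells, where the undivided cells gave 20.8, 24.9 and 29.9 times. The members chosen on one part were 78, 187 and 136 cells, a different set from the members used elsewhere. The limit of 2 mitotic UMIs was applied to that part alone and was thus looser. For most cells chosen in this way, the high score recurred in UMIs that had not chosen them.

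The label was checked on 15 G1/S genes and 5 S phase nucleotide genes that the rule did not use. The median member held 14.2, 14.6 and 12.5 UMIs per 10000 of the 15 genes, against 2.75, 3.02 and 2.87 in low-score cells. All 15 genes were higher in members by edgeR (log2 fold changes with a median of 3.004), but so were the 5 nucleotide genes Rrm1, Rrm2, Tyms, Tk1 and Dut (median 3.13). The median member held 6.89, 6.57 and 5.42 UMIs per 10000 of those 5, against 1.00, 1.12 and 1.24 in low-score cells. Members thus carried RNA of both G1/S and S phase genes, and cells about to replicate and cells already replicating cannot be told apart here. RNA of most stem cell markers was present in members. Kit lay at 188 to 263 CPM in members, against 242 to 268 CPM in low-score cells. Hlf lay at 279 to 538 CPM, against 543 to 832 CPM. Ly6a lay at 144, 213 and 225 CPM in members, against 304, 298 and 348 CPM in low-score cells. Mecom, Mllt3 and Flt3 were also lower in members of every library, and Cd34 only in ST-HSC of mouse 2. Slamf1 lay at 21.9, 1.90 and 0 CPM in members, against 24.4, 0.575 and 0.986 CPM in low-score cells.

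**Figure D1:**
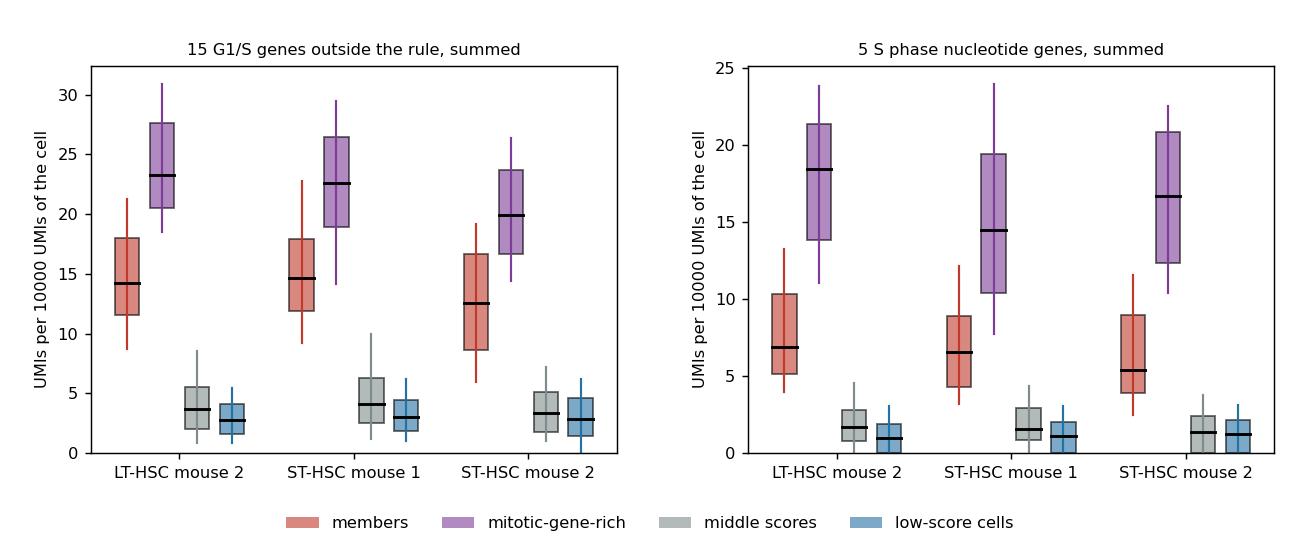
UMIs per 10000 UMIs of a cell, summed over 15 G1/S genes outside the rule (left panel) and 5 S phase nucleotide genes (right panel), for 4 classes of cells in each of 3 libraries. Boxes span the quartiles with the median as a line, and whiskers run from the 10th to the 90th percentile of cells; in every library the members lie between the low-score cells and the mitotic-gene-rich cells, with medians of 14.2, 14.6 and 12.5 in the left panel.

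Promoters of the genes that were higher in members were read from RefSeq (build GRCm38.p6, 250 bases before to 50 bases after the start), because E2F is known to bind the promoters of many of these genes. An E2F word was counted where TTTGGCGC, TTTCCCGC, TTTGCCGC or TTTCGCGC stood on either strand; words on opposite strands can overlap, and each promoter was counted once. A word was found in 9.11% of 1724 promoters of genes higher in members than in low-score cells and in 1.40% of 1424 promoters of genes that were lower. Among genes that differed by over 1 on the log2 scale, it was found in 18.5% of 340 promoters of higher and in 1.79% of 224 promoters of lower genes. It was found in 4.37% of 8636 promoters of all genes tested and in 2.32% of all 27025 promoters. The shares are descriptions of letters, and the motif-bearing promoters below are those of 3 strongly called cycle genes and of 1 gene among the largest changes. Capitals mark the E2F words, and each sequence is written in the direction of its gene. Mcm7, a helicase subunit, has its promoter at chr5:138171834-138172133 on the minus strand, with 2 words.
Mcm7: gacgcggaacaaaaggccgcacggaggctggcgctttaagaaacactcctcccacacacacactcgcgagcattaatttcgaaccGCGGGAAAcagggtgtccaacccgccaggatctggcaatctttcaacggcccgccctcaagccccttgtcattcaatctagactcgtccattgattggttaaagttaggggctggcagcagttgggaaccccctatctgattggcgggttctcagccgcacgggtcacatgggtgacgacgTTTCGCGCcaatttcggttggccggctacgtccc
Dtl, a subunit of the ubiquitin ligase that destroys Cdt1 during replication, has its promoter at chr1:191575495-191575794 on the minus strand.
Dtl: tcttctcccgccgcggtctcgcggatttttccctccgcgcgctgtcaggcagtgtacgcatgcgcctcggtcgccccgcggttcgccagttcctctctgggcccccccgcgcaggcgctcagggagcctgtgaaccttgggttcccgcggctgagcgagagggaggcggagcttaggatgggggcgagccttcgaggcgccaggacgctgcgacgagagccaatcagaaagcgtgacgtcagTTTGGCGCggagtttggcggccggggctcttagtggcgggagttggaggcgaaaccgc
Tfdp1, the DP1 partner of E2F, has its promoter at chr8:13338501-13338800 on the plus strand.
Tfdp1: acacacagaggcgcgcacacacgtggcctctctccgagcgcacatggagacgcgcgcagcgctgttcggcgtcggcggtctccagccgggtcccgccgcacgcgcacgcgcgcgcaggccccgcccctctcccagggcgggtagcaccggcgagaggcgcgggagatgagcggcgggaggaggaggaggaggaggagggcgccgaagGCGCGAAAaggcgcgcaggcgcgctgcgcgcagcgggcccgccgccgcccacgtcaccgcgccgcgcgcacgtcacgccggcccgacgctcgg
Cenps, a DNA-binding protein of the centromere and of crosslink repair, has its promoter at chr4:149137551-149137850 on the minus strand.
Cenps: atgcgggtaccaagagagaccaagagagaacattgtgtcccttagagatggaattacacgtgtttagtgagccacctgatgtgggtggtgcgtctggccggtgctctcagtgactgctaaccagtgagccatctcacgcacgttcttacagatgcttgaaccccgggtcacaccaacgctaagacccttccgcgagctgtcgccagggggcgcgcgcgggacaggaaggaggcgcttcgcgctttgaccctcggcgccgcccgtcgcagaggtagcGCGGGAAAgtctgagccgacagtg

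Members held more RNA than low-score cells. The median member had 15759, 13679 and 10669 UMIs, against 9795, 9095 and 7061 in low-score cells, a ratio of 1.61, 1.504 and 1.51 in the 3 libraries. Mitotic-gene-rich cells held still more, with medians of 19403, 18532 and 15899.5 UMIs. The rule splits these cells from members by raw mitotic UMIs, and deeper cells reach the limit more easily. Their greater depth is thus partly built into the rule. The members' ratio was above 1 in all 3 libraries, and an exact paired permutation test gave p = 0.25 (two-sided), the smallest that 3 libraries allow. All levels below are CPM, that is, shares of the captured RNA, so a gene that stays level per cell falls in CPM in these larger profiles. Of 11051 genes tested, 69.3% had more UMIs per cell in members than in low-score cells in all 3 libraries.

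Setting members against low-score cells asked which genes outside the rule go with the high score. By edgeR's quasi-likelihood test with Benjamini-Hochberg adjustment, 2133 of 11051 genes were higher in members (19.3%) and 1795 were lower (16.2%) at an adjusted p under 0.05, of which 431 rose and 312 fell by over 1 on the log2 scale. Without the library as a block, 1165 were higher and 500 lower, and DESeq2 gave 1239 and 569. The median log2 fold change of all tested genes was -0.03. Lists of DNA replication and homologous recombination had the highest medians. The 12 largest decreases were the neutrophil genes Ngp, S100a8, Retnlg, S100a9 and Lcn2, the histone genes Hist1h2bc, Hist1h2ac and Hist3h2a, and Meg3, Tcp11l2, Cenpa and Ccng2. Of the 1795 genes that were lower in CPM, 438 also had fewer UMIs per cell in all 3 libraries, and 419 had more. Of the 2133 higher genes, 2129 had more UMIs per cell. That count was nearly fixed in advance, because members held more UMIs in total.

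**Figure D2:**
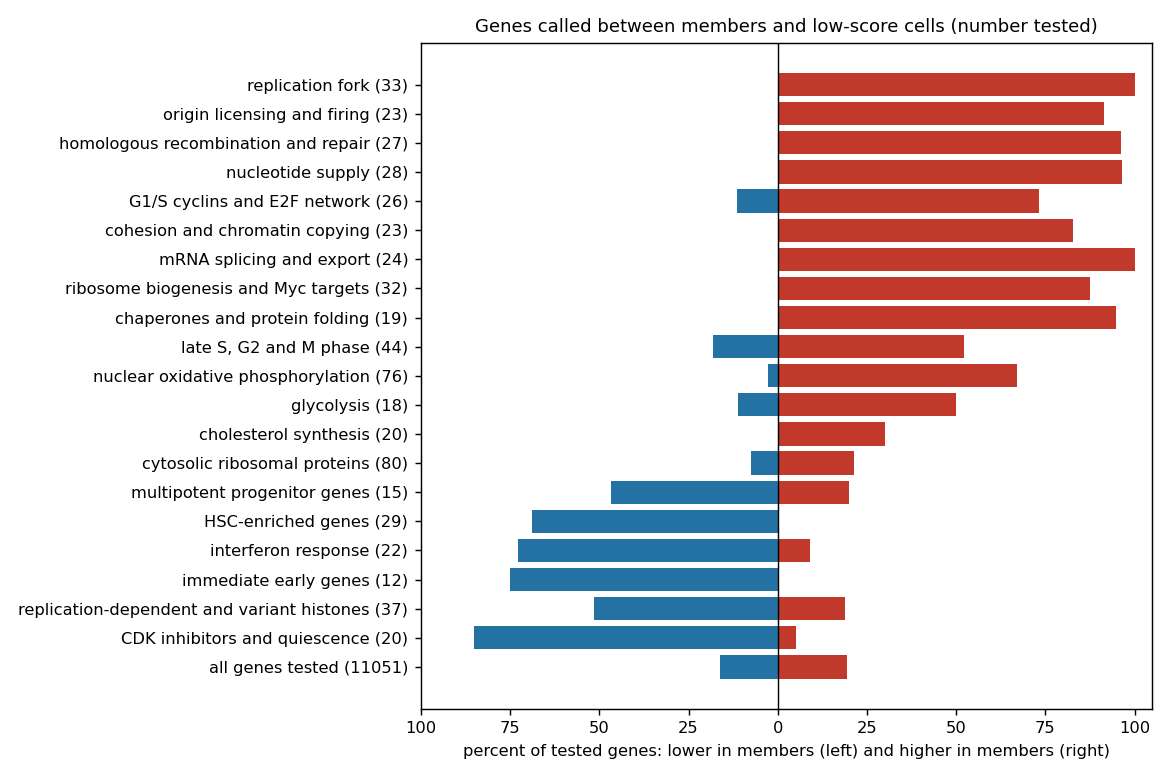
Percent of the tested genes of each list that were higher (right, red) or lower (left, blue) in members than in low-score cells by edgeR; the number tested is in parentheses. All 33 replication fork genes were higher and 17 of 20 CDK inhibitor and quiescence genes were lower, beside 19.3% and 16.2% of all genes tested.

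The replication machinery rose almost as a whole. All 33 tested genes of the replication fork were higher, with a median log2 fold change of 2.11, and 21 of 23 genes of origin licensing and firing were higher, with a median of 2.06. None was lower in either list. Orc4 and Orc5, subunits of the origin recognition complex, did not pass (both at -0.14). Mcm4, a helicase subunit, lay at 117, 148 and 109 CPM in members, against 16.7, 14.5 and 14.7 CPM in low-score cells, a log2 fold change of 3.09 (SE 0.11). Gins2, which joins the helicase at firing, lay at 76.9, 76.8 and 82.1 CPM in members, against 6.97, 6.58 and 7.76 CPM in low-score cells (log2 fold change 3.48, SE 0.14). Pcna, the sliding clamp of the polymerases, lay at 229, 289 and 198 CPM in members, against 38.9, 61.4 and 38.8 CPM in low-score cells. Each of these genes was several times higher in every library. Their groups did not overlap, as held for 35.7% of all genes tested.

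Timeless and Tipin, which together protect the moving fork, rose by 3.81 (SE 0.19) and 3.004 (SE 0.09) on the log2 scale. Timeless lay at 39.9, 54.2 and 41.8 CPM in members, against 3.23, 4.04 and 2.26 CPM in low-score cells. Chaf1a, which places histones on new DNA, lay at 64.2, 54.2 and 49.3 CPM in members, against 4.59, 3.81 and 3.88 CPM in low-score cells. Mcm10, needed to start the helicase, had 58 UMIs in members and 5 in the far larger low-score sums. Its CPM in low-score cells was 0.0162 of that in members (95% exact counting interval 0.00508 to 0.0401).

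Nucleotide supply followed, with 27 of 28 genes higher and none lower (median 1.15). Tyms, the thymidylate synthase, lay at 119.7, 84.9 and 101.5 CPM in members, against 12.9, 10.4 and 10.99 CPM in low-score cells. Dut, which clears dUTP, was the most abundant of the named nucleotide genes at 535, 529 and 495 CPM in members, against 89.9, 97.7 and 102.0 CPM in low-score cells. Impdh1, a guanine nucleotide enzyme, did not pass (0.17).

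Of the G1/S cyclins and the E2F network, 19 of 26 genes were higher and 3 were lower (median 0.88). Ccne2, a cyclin E that drives entry into replication, lay at 21.4, 10.6 and 13.4 CPM in members, against 0.680, 1.19 and 1.62 CPM in low-score cells (log2 fold change 3.53, SE 0.35). E2f8, a repressor in the E2F family that is itself an E2F target, rose by 4.33 (SE 0.51) at low counts, with 8.76, 5.28 and 8.21 CPM in members, against 0.170, 0.476 and 0.162 CPM in low-score cells. Tfdp1 lay at 199, 153 and 174 CPM in members, against 51.0, 46.4 and 47.2 CPM in low-score cells. The D-type cyclins, which respond to growth signals before this step, moved less: Ccnd1 rose by 0.95 (SE 0.15), while Ccnd2 (0.13, SE 0.07) and Ccnd3 (-0.03, SE 0.08) did not pass. Cdk4, their kinase, lay at 424, 365 and 472 CPM in members, against 189, 187 and 234 CPM in low-score cells. The 3 genes that fell were Rbl2, the p130 pocket protein of resting cells (-0.60), E2f5, a pocket-protein-bound E2F (-0.56), and Mycn (-0.41).

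Genes of homologous recombination and repair rose strongly, with 26 of 27 higher and none lower (median 1.91). Rmi2, a part of the complex that dissolves recombination intermediates, lay at 59.4, 51.3 and 49.3 CPM in members, against 2.38, 1.59 and 1.78 CPM in low-score cells (log2 fold change 4.83, SE 0.20). Fignl1, an ATPase of recombination, lay at 74.0, 64.3 and 65.7 CPM in members, against 2.04, 2.70 and 2.26 CPM in low-score cells (4.78, SE 0.17). Chek1, the checkpoint kinase for stalled forks, lay at 48.7, 59.5 and 43.3 CPM in members, against 3.06, 2.22 and 0.970 CPM in low-score cells. Among genes averaging at least 20 CPM these 3 had the largest increases. Their groups did not overlap, as held for 35.7% of all genes tested. Among the 12 largest increases were also the centromere genes Cenps, Cenpk, Cenpm and Spc24, at 3.37 to 3.92 on the log2 scale.

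Of the genes for cohesion and chromatin copying, 19 of 23 were higher and none was lower (median 0.75). Dnmt1, which copies DNA methylation to the new strand, lay at 171, 188 and 131 CPM in members, against 29.6, 38.5 and 33.5 CPM in low-score cells. Atad2, an E2F target that binds acetylated histones, lay at 152, 154 and 134 CPM in members, against 27.5, 30.5 and 27.3 CPM in low-score cells. Dnmt3a, which sets methylation anew, did not pass (0.03).

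**Figure D3:**
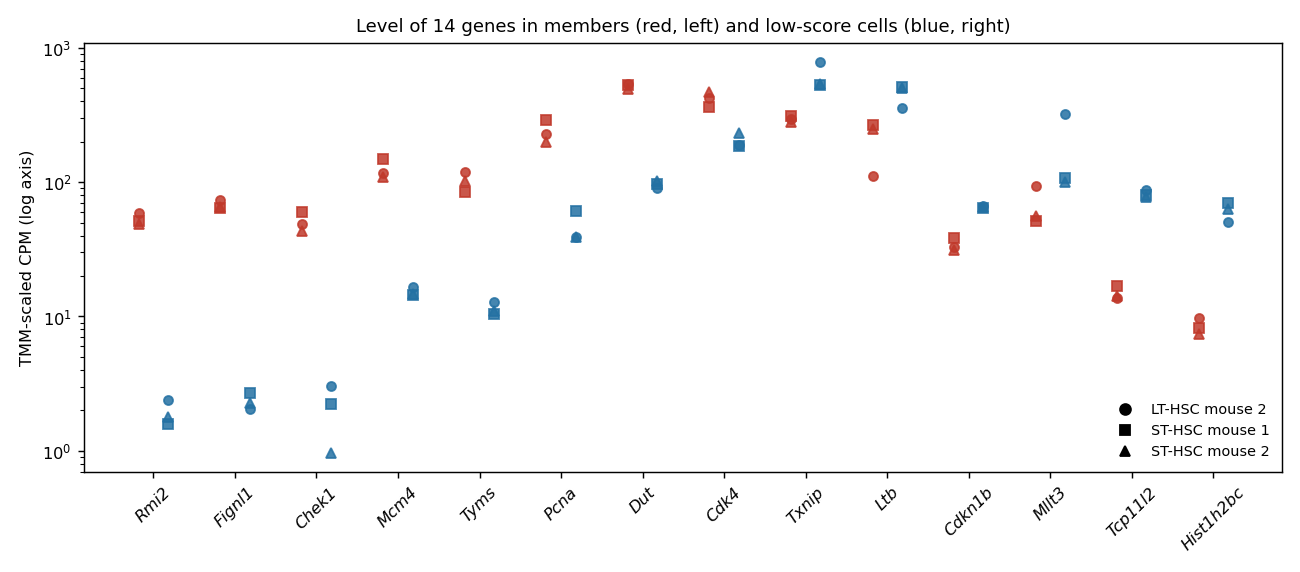
TMM-scaled CPM on a log axis of 14 genes in members (red, left) and low-score cells (blue, right); each symbol shape is 1 library. Rmi2, Fignl1 and Chek1 lie at 43.3 to 74.0 CPM in members, against 0.970 to 3.06 CPM in low-score cells, and Tcp11l2 and Hist1h2bc lie lower in members in every library.

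Growth genes rose by smaller amounts. All 24 mRNA splicing and export genes were higher (median 0.72), as were 28 of 32 ribosome biogenesis and Myc target genes (median 0.69) and 18 of 19 chaperones (median 0.49), with none lower. Ran, the GTPase of nuclear transport, lay at 1076, 951 and 976 CPM in members, against 383, 398 and 406 CPM in low-score cells. Srm, the spermidine synthase and a Myc target, lay at 165, 124 and 142 CPM in members, against 60.0, 51.9 and 56.2 CPM in low-score cells. Of nuclear oxidative phosphorylation genes, 51 of 76 were higher and 2 were lower (median 0.31), and of glycolysis genes, 9 of 18 were higher and 2 lower (median 0.35). Without the library block, 22 of the oxidative phosphorylation genes and 4 of the glycolysis genes were higher. Tpi1, a glycolytic isomerase, rose by 1.03 (SE 0.07). The 80 cytosolic ribosomal protein genes had a median of 0.00, with 17 higher and 6 lower, beside 19.3% and 16.2% of all genes tested. Those counts were 28 and 8 without LT-HSC of mouse 2, 6 and 1 without ST-HSC of mouse 1, 7 and 2 without ST-HSC of mouse 2, and 2 and 0 without the library block. Cholesterol synthesis genes were higher in 6 of 20 cases (median 0.33; 3 without the library block), among them Fdps at 86.6, 51.3 and 69.4 CPM in members, against 35.2, 26.6 and 37.7 CPM in low-score cells.

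CDK inhibitors and quiescence genes fell as a group, with 17 of 20 lower, 1 higher and a median of -0.81 (8 lower without the library block, 11 by DESeq2). Cdkn1b, the p27 inhibitor of cyclin-dependent kinases, lay at 33.1, 38.4 and 31.3 CPM in members, against 67.0, 64.1 and 65.5 CPM in low-score cells (log2 fold change -0.90, SE 0.12). Txnip, a glucose-uptake brake known from resting stem cells, lay at 296, 313 and 281 CPM in members, against 783, 530 and 539 CPM in low-score cells. Klf6, a growth-restraining transcription factor, fell by 1.41 (SE 0.17) and Trp53inp1 fell by 1.14 (SE 0.20) on the log2 scale. Cdkn2c, the p18 inhibitor and a known E2F target, was the exception, rising by 0.83 (SE 0.24). Ccng2, a cyclin of growth-arrested cells that is known as a FoxO target, lay at 11.7, 14.4 and 17.2 CPM in members, against 33.8, 44.2 and 49.8 CPM in low-score cells. Tcp11l2 fell by 2.41 (SE 0.14), with 13.6, 16.8 and 14.2 CPM in members, against 87.9, 80.6 and 77.1 CPM in low-score cells. Per cell rather than in CPM, the list summed to 9.85, 10.3 and 7.32 UMIs in members, against 14.1, 11.7 and 8.79 in low-score cells, so it was lower by that measure too.

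Response genes were lower in CPM. Of 12 immediate early genes, 9 were lower and none was higher (median -0.69; 5 lower without the library block), with Jun at 144, 158 and 154 CPM in members, against 272, 242 and 196 CPM in low-score cells. Of 22 interferon response genes, 16 were lower and 2 higher (median -0.50; 4 lower without the library block), with Oasl2 at 30.2, 36.0 and 30.6 CPM in members, against 62.2, 62.7 and 61.1 CPM in low-score cells. Per cell the picture differed: the interferon list summed to 14.6, 13.6 and 9.81 UMIs in members, against 12.1, 10.9 and 8.61 in low-score cells. Immediate early genes summed to 10.1, 10.7 and 7.55 UMIs per cell in members, against 10.6, 11.4 and 6.91 in low-score cells. The lower share of these genes thus went with a larger total, and their own UMIs per cell changed little or were higher.

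Genes of stem cell identity showed the same contrast between shares and amounts. Of 29 tested HSC-enriched genes, 20 were lower in members and none was higher (median -0.50). Without the library as a block, 3 were lower, and by DESeq2 13 were. Mllt3, which sustains stem cell self-renewal, lay at 94.4, 51.3 and 56.0 CPM in members, against 325, 107 and 99.6 CPM in low-score cells (log2 fold change -1.28, SE 0.11). Hlf, a stem cell transcription factor, lay at 285, 542 and 457 CPM in members, against 537, 803 and 728 CPM in low-score cells (-0.69, SE 0.06); values from different libraries overlapped, but members were lower within each. Meg3, an imprinted noncoding RNA of long-term stem cells, lay at 19.5, 3.84 and 4.48 CPM in members, against 190, 22.8 and 23.3 CPM in low-score cells (-2.996, SE 0.18), or -2.32 with cells of 10 or more other-type UMIs left out.

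Per cell, the HSC-enriched list summed to 77.2, 49.7 and 43.7 UMIs in members, against 78.8, 47.0 and 41.9 UMIs in low-score cells, a ratio of 0.980, 1.06 and 1.04. The 29 genes did not share 1 pattern. In all 3 libraries, 7 of the 29 had fewer UMIs per cell in members and 9 had more. Of all 11051 genes tested, 480 had fewer and 7658 (69.3%) had more, so the list leaned toward fewer. Meg3 had 0.163, 0.239 and 0.276 and Mllt3 0.462, 0.683 and 0.806 of the UMIs per cell of low-score cells, whereas Mecom had 1.01, 1.09 and 1.02. The multipotent progenitor list had 3 of 15 genes higher and 7 lower (median -0.08), beside 19.3% and 16.2% of all genes tested. The counts were 2 and 3 without ST-HSC of mouse 1, 1 and 2 by DESeq2, and 0 and 0 without the library block. Its sum was 1.45, 1.34 and 1.39 times higher per cell in members, close to the members' total RNA. Cd48, the surface protein absent by the sort, was among the 3 that were higher, at 1.95, 13.9 and 27.6 CPM in members, against 1.02, 11.02 and 11.6 CPM in low-score cells.

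**Figure D4:**
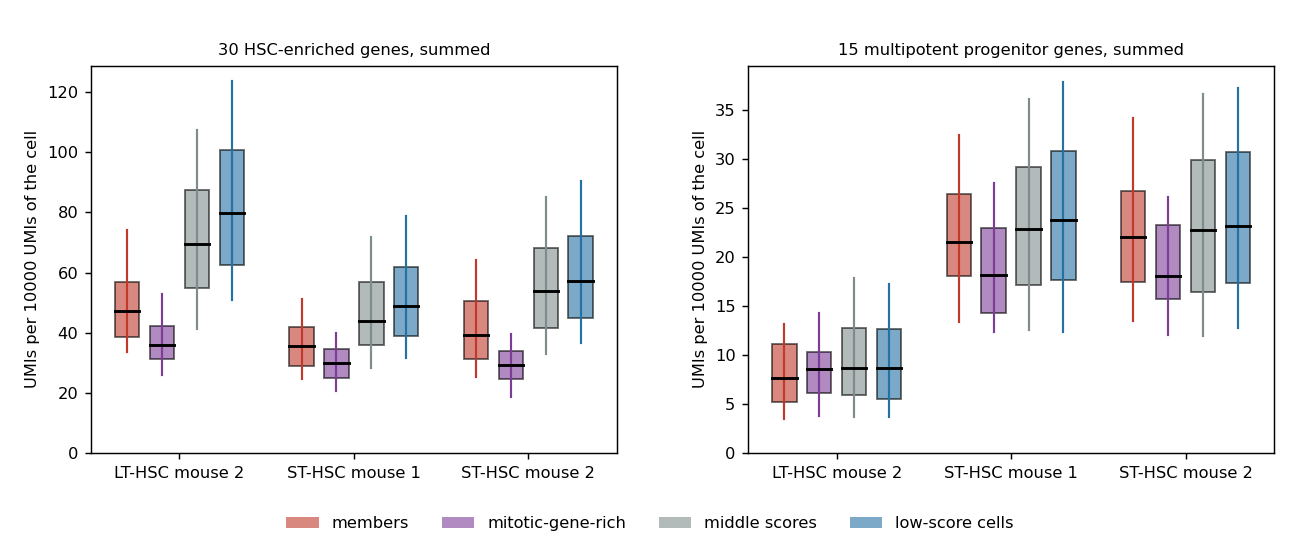
UMIs per 10000 UMIs of a cell, summed over 30 HSC-enriched genes (left panel) and 15 multipotent progenitor genes (right panel), for 4 classes of cells in each of 3 libraries; boxes are quartiles, lines medians and whiskers the 10th to 90th percentile. Median shares of the HSC-enriched list were 47.4, 35.6 and 39.1 in members, against 79.7, 48.8 and 57.1 in low-score cells, while progenitor shares differed little.

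Histone genes were more often lower than higher. Of 37 tested histone genes, 19 were lower and 7 higher (median -0.77), beside 16.2% lower and 19.3% higher of all genes tested. The count of higher genes is thus near the general share. Without the library block, 13 were lower and 3 higher. Summed over the whole list, histone RNA lay at 6804, 7747 and 8179 CPM in members, against 5900, 7804 and 7652 CPM in low-score cells. Hist1h2bc lay at 9.73, 8.16 and 7.46 CPM in members, against 50.3, 69.6 and 63.2 CPM in low-score cells, and Hist1h1c, a linker histone, fell by 1.46 (SE 0.14). H2afz, a variant histone, lay at 1506, 1368 and 1415 CPM in members, against 598, 647 and 684 CPM in low-score cells. Near-identical histone genes can share 3' reads, so single members are uncertain.

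Late S, G2 and M phase genes were partly used by the rule through their relatives, since members were limited in mitotic UMIs and low-score cells were not. Of 44 tested genes, 23 were higher and 8 lower (15 and 5 without the library block). Stmn1, a tubulin-binding protein, lay at 1916, 2007 and 2071 CPM in members, against 572, 752 and 815 CPM in low-score cells. Tuba1b, an alpha-tubulin, rose by 2.02 (SE 0.06). Cenpa, the centromeric histone, lay at 2.92, 13.4 and 17.2 CPM in members, against 35.5, 66.0 and 51.9 CPM in low-score cells. Hmmr, a spindle protein, had 0 UMIs in members and 164 in low-score cells, at least 10.3-fold lower against 3 counts over all members. The low-score cells included 6, 45 and 23 cells over the mitotic limit. With those left out, 32 of 36 tested genes of the list were higher and 2 were lower, and the log2 fold change of Cenpa was -1.25 in place of -2.17.

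Setting members against mitotic-gene-rich cells asked how cells within the top 10% of the score differ by their mitotic RNA. The scores of both classes were not equal, with medians of 18.6, 17.1 and 15.9 in members, against 23.9, 22.9 and 21.9 in mitotic-gene-rich cells. Of 9036 genes tested, 284 were higher (3.14%) and 619 lower (6.85%) in members by edgeR, 9.99% in all; without the library block the counts were 5 and 220, and by DESeq2 67 and 214. Neutrophil markers summed to 10.5 CPM in members of ST-HSC of mouse 1, against 846.8 CPM in its mitotic-gene-rich cells. In ST-HSC of mouse 2, members held 197 CPM of red cell, 1456 CPM of myeloid priming and 344 CPM of macrophage genes, against 3764, 4999 and 1073 CPM in mitotic-gene-rich cells. In LT-HSC of mouse 2, macrophage genes summed to 337 CPM in members, against 894.6 CPM in mitotic-gene-rich cells. Single mitotic-gene-rich cells held much of this RNA. In ST-HSC of mouse 1, the top cell held 1769 of the 1790 neutrophil UMIs of its class. In ST-HSC of mouse 2, the top cells held 2641 of 2718 red cell and 424 of 775 macrophage UMIs. In LT-HSC of mouse 2, the top cell held 653 of 972 macrophage UMIs. These sums are thus no level of the typical cell, and the part of these cell types in the result was not tested. Of the late S, G2 and M phase genes, 46 of 48 were lower, a list close to the genes that the limit on mitotic UMIs used. S phase genes were lower too, with 25 of 33 replication fork genes lower (median -0.56) and all 5 nucleotide genes lower. So were 10 of 22 origin licensing genes (median -0.44) and 16 of 29 homologous recombination and repair genes (median -0.62), with none higher in these lists. Rrm2, the regulated subunit of ribonucleotide reductase, lay at 18.2, 15.1 and 15.4 CPM in members, against 237, 167 and 262 CPM in mitotic-gene-rich cells (log2 fold change -3.73, SE 0.14). Ccne1, the other cyclin E, lay at 8.61, 3.30 and 5.85 CPM in members, against 33.6, 23.2 and 34.2 CPM in mitotic-gene-rich cells. Histone genes were lower in 27 of 34 cases, with Hist1h1b at 0.956, 4.71 and 2.19 CPM in members, against 138, 116 and 121 CPM in mitotic-gene-rich cells.

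Some genes of these lists did not pass. Timeless had 39.2, 53.2 and 40.9 CPM in members, against 40.9, 56.0 and 44.1 CPM in mitotic-gene-rich cells (log2 fold change -0.08, SE 0.15). Rmi2 (0.02, SE 0.15), Chek1 (-0.13, SE 0.14) and Mcm7 (-0.13, SE 0.08) are further examples. Ribosome biogenesis genes, which separated members from low-score cells, had 1 of 32 higher and none lower (median 0.04). HSC-enriched genes were higher in members in 9 of 23 cases and lower in none (median 0.29), so members lay between low-score and mitotic-gene-rich cells in their share of these genes. Per cell, the list summed to 77.2, 49.7 and 43.7 UMIs in members, against 74.4, 56.2 and 45.9 in mitotic-gene-rich cells. By that measure members were higher only in LT-HSC of mouse 2. Cytosolic ribosomal protein genes were higher in 53 of 80 cases. Without the library block, only 5 of all genes tested were higher. Procr, the EPCR surface marker of stem cells, lay at 44.95, 70.1 and 88.5 CPM in members, against 19.1, 46.8 and 41.3 CPM in mitotic-gene-rich cells. Wfdc17, a secreted inhibitor-like protein, showed the largest rise among the named genes at 1.99 (SE 0.19), and Ccnd2 was higher by 0.71 (SE 0.10). Wfdc17 lay at 2.87, 93.2 and 114 CPM in members, against 1.82, 27.3 and 17.1 CPM in mitotic-gene-rich cells. Its rise thus rests on the ST-HSC libraries, since the LT-HSC values come from few counts.

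**Figure D5:**
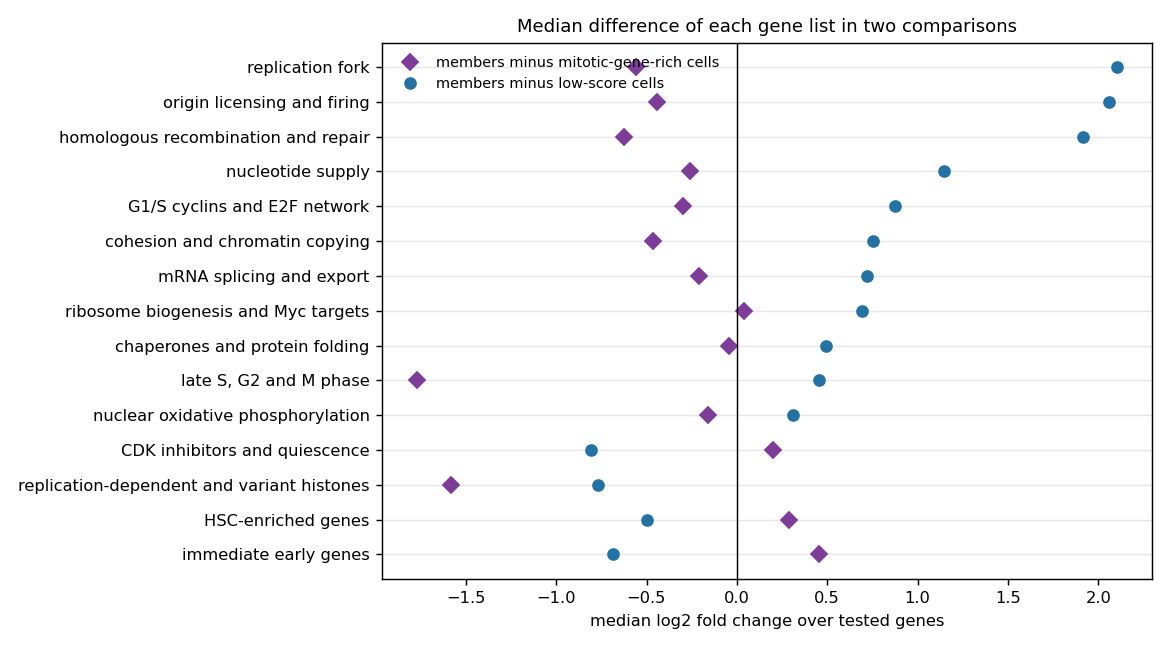
Median log2 fold change over the tested genes of 15 lists, for members minus mitotic-gene-rich cells (purple diamonds) and members minus low-score cells (blue circles); the comparisons share the members. Replication fork genes lie at -0.56 and 2.11, ribosome biogenesis genes at 0.04 and 0.69, and HSC-enriched genes at 0.29 and -0.50.

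RNA of other cell types differed between the classes and libraries. Of the members, 20 of 67, 64 of 153 and 28 of 129 held 10 or more UMIs over all such lists, against 124 of 609, 323 of 1317 and 152 of 854 low-score cells. That limit is on raw UMIs and members held more UMIs in total, so these shares do not compare the classes at equal depth. The macrophage list alone averaged 5.28, 4.97 and 3.69 UMIs per cell in members, against 4.34, 5.16 and 5.71 in low-score cells. A cell over the limit is thus not shown to be of another type. The 8 neutrophil markers summed to 6.66, 10.5 and 16.6 CPM in members, against 365, 527 and 4058 CPM in low-score cells, where 2, 3 and 8 cells carried 10 or more such UMIs; 5, 4 and 2 of the 8 markers had no UMI in members. The falls of S100a8 and S100a9 (-7.22 and -6.67), the subunits of calprotectin, and of Ngp, Retnlg and Lcn2 went together with these few cells. When cells with 10 or more UMIs over the lists of other cell types were left out, S100a8 and S100a9 no longer passed (-0.71 and -0.02). Both genes are in those lists, so the filter largely fixed that outcome and it is no test of their source. With the same cells left out, the HSC-enriched list had 21 of 29 genes lower and the replication fork list 33 of 33 higher. In members of ST-HSC of mouse 2, 1 cell held 1081 of the 1089 mast cell and basophil UMIs, and 72 of 76 Cpa3 UMIs. That list summed to 786.5 CPM in members of this library, against 6.25 CPM in its low-score cells. Cpa3, a mast cell protease, lay at 1.95, 1.92 and 56.7 CPM in members, against 1.36, 3.49 and 3.88 CPM in low-score cells. Mpo, the myeloperoxidase of the myeloid lineage, likewise lay at 0, 6.24 and 42.5 CPM in members, against 0.510, 5.47 and 2.75 CPM in low-score cells; its log2 fold change was 2.05, and 0.12 without ST-HSC of mouse 2. Macrophage markers summed to 337 to 362 CPM in members, against 455 to 801 CPM in low-score cells, with most of it Lyz2. Red cell markers summed to 76.1, 226 and 197 CPM in members, against 165, 95.5 and 210.1 CPM in low-score cells.

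The rule fixes the top 10% in each library, so the share of high-scoring cells can be compared between gates only at a common limit. When each cell was thinned to 4000 UMIs, 13.7% of LT-HSC cells of mouse 2 had 4 or more score UMIs (95% exact binomial interval 11.8 to 15.8), against 14.2% (12.9 to 15.6) and 11.9% (10.4 to 13.6) of ST-HSC cells of mouse 1 and mouse 2. The thinning left out 49, 30 and 29 cells with fewer UMIs. Without thinning, 12.8%, 13.1% and 9.90% of cells had a score of 10 or more. The intervals overlap and cover counting error only, and with 1 usable LT-HSC library the gates were not tested.

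The difference between members and low-score cells was itself compared between LT-HSC and ST-HSC by an interaction term. It passed for 82 of 11051 genes (0.742%) by edgeR, 42 with a positive (0.38%) and 40 with a negative difference (0.362%), with 1034 genes at an unadjusted p under 0.05, and for none of the genes of the replication fork, origin licensing or nucleotide lists. Mllt3 had a log2 fold change of -1.77 in LT-HSC of mouse 2, against -1.04 and -0.82 in the ST-HSC libraries of mouse 1 and mouse 2, a difference of -0.81 (edgeR adjusted p = 0.0052). Txnip stood at -1.40 in LT-HSC, against -0.76 and -0.94 in the ST-HSC libraries, a difference of -0.57 (edgeR adjusted p = 2.8e-05). The single LT-HSC library is assumed in this fit to vary like the ST-HSC libraries.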

How the data were processed

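The deposited matrices hold raw UMI counts of genes by barcodes. The authors made them with Cell Ranger 3.1.0 on mm10 per the submitters' processing notes; the file headers give software 3.0.2. The choice of barcodes is not stated there. The members, the gene lists and the tests were chosen with earlier results of these data known. Barcodes were kept with 1000 or more genes, 2000 or more UMIs and at most 10% mitochondrial UMIs. No doublet caller was run; leaving out cells above 2 times the median UMIs was an alternative.

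Cells are not replicates, so counts were summed by library and class. The sums were tested in edgeR 4.0.16 (quasi-likelihood F, TMM, filterByExpr defaults, Benjamini-Hochberg over all genes tested, threshold 0.05; R 4.3.3). Library was a block, because both classes of a library share animal, sort and droplet run. The 17 rule genes stayed in the library sizes and were not tested. The other genes did not enter the rule except through the total UMIs of a cell. SEs were derived from each log2 fold change and its F statistic (absolute change over root F). CPM values are TMM-scaled for tested genes and plain for rule genes, stem cell markers and list sums. The fit was tested on simulated data. Class sums held 722177 to 12173613 UMIs, so 3 counts are 0.246 to 4.15 CPM; intervals and floors cover counting error only.

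Genes named are the 12 largest changes each way (adjusted p under 0.05, mean of 20 CPM or more, same direction in all 3 libraries), up to 4 per list by smallest p among those averaging at least 5 CPM, and, against mitotic-gene-rich cells, the 6 largest each way; others are markers of the 15 and 5 check genes or were chosen after their values were seen. Some genes that the rule names are not reported here. Promoters, matched by symbol, were those of RefSeq, and DESeq2 1.42.0 served as a second count test. The replicate numbers mark the animal, so same-numbered libraries share a mouse, but no result here compares libraries as pairs.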

Additional observations from a re-analysis of the deposited data

Results flagged for a closer look

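The difference between members and low-score cells differed between LT-HSC and ST-HSC for 11 of the named genes, by the edgeR interaction term (LT-HSC minus ST-HSC, 1 LT-HSC and 2 ST-HSC libraries). The cycle-linked genes Stmn1 (0.36) and H2afz (0.27) rose more in LT-HSC. Txnip (-0.57), Ltb, a lymphotoxin gene of lymphoid priming (-0.70), Mllt3 (-0.81), Gpr171, a receptor gene of multipotent progenitors (-1.08), and H2-D1, an MHC class I gene (-0.24), fell more in LT-HSC. Lyz2, a lysozyme gene (0.67), and Car2, a carbonic anhydrase gene (0.39), stood lower in ST-HSC, Lyz2 with log2 fold changes of -0.27 in LT-HSC and -0.59 and -1.40 in ST-HSC. Lyz2 went together with the neutrophil markers, which reached 4058 CPM in low-score cells of ST-HSC of mouse 2, and their part in the result was not tested. Hbb-bt, a globin gene (-1.97), lay at 65.2 CPM in members of LT-HSC of mouse 2 and at 216 and 174.6 CPM in members of both ST-HSC libraries, against 154, 85.9 and 178.9 CPM in low-score cells. Gfi1, a quiescence regulator of stem cells, had a fitted difference of -8.75 that is no bound, since members of LT-HSC of mouse 2 held 0 UMIs and low-score cells 99. That is at least 5.96-fold lower against 3 counts, where members of the ST-HSC libraries held 47 and 31 UMIs and low-score cells were 1.54 and 1.67 times higher in CPM.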

How the results depend on the processing

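Against low-score cells, 2133 genes were higher and 1795 lower. Without the replicate block (library), 1165 were higher and 500 lower; DESeq2 gave 1239 and 569, cells thinned to 4000 UMIs 1416 and 874, and the top 5% of the score 1567 and 1121. All 1165 and 500, and all of the DESeq2 calls, were among the main calls. Leaving out 1 library gave 1624 to 2063 higher and 1199 to 1621 lower. Against mitotic-gene-rich cells, 284 higher and 619 lower became 5 and 220 without the replicate block and 67 and 214 by DESeq2. The interaction count of 82 became 46 by DESeq2, 50 with no filter on low counts and 28 after thinning; leaving out libraries could not be fitted there. The depth ratio reached 1.64 in the top 5% of the score. The equal-depth share of ST-HSC of mouse 2 was 10.3% at 2500 UMIs with 3 or more score UMIs. That limit is stricter per UMI than 4 score UMIs at 4000, so the change is not one of depth alone. Reversed values were Hbb-bs at -0.54 after thinning and at -0.13 and -0.16 with other-type cells left out. Hbb-bt (0.31, not passed) turned to -0.48 without ST-HSC replicate 1, and to -0.45 and -0.70 with other-type cells left out. The settings that gave -0.16 and -0.70 kept the endothelial list aside and were chosen after seeing the data. Without LT-HSC replicate 2, Hbb-bt kept its direction at 0.73. Of 2035 values of 129 named genes, 1911 kept direction and call. Without the low-count filter the median of all genes moved to -0.19. The sums of LT-HSC of mouse 2, the smallest library of 67 members, limit what can be seen of rare RNAs.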

Other observations

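Priming genes of blood lineages moved in both directions, beside 19.3% higher and 16.2% lower of all genes tested. Several of the counts below lie near those shares and set the lists little apart from other genes. Of 10 tested myeloid priming genes, 4 were higher and 2 lower in members (none of either without the library block). Of 8 tested lymphoid priming genes, 4 were lower and 1 higher in members (1 and 1 without the library block): Ltb lay at 112, 266 and 247 CPM in members, against 357, 512 and 501 CPM in low-score cells. Tcf3, a transcription factor of lymphoid fate, rose by 0.52 (SE 0.10). Of 11 erythroid and megakaryocyte genes, 5 were lower and 2 higher (none of either without the library block). Vwf, the clotting factor of platelet-primed stem cells, lay at 10.7, 0.960 and 1.49 CPM in members, against 28.4, 3.41 and 4.53 CPM in low-score cells. Itga2b, the CD41 integrin, lay at 42.8, 15.4 and 15.7 CPM in members, against 18.7, 12.2 and 11.3 CPM in low-score cells, and its log2 fold change of 0.70 was 0.02 in the top 5% of the score and 0.39, no longer passing, without LT-HSC of mouse 2.

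Of 10 p53 target genes, 3 were higher and 2 lower, beside 19.3% and 16.2% of all genes tested. Aen, an exonuclease, and Bax, a pore-forming death protein, rose by 0.74 (SE 0.13) and 0.43 (SE 0.08), while Bbc3, the PUMA death protein, fell by 0.71 (SE 0.17) and Cdkn1a, the p21 inhibitor, did not pass (0.10). Letters of the cell cycle homology region (TTTGAA, on either strand) stood in 70.7% of 41 promoters of late S, G2 and M phase genes, in 23.2% of 488 promoters of genes lower in members than in mitotic-gene-rich cells, in 11.8% of 8636 promoters of all genes tested and in 18.1% of all 27025 promoters. The E2F words stood in 12.9% of those 488 promoters and in none of the 20 promoters of CDK inhibitors and quiescence genes.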
